A study of Mus musculus with 4 samples.

Results

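The zinc finger gene Plagl1, its relatives Plag1 and Plagl2, and all rows that carry no gene ID were followed through a table of tag counts from Neuro-2A cells, a mouse neuroblastoma line labelled with the strain Swiss Albino. Members were chosen by gene symbol or by an empty gene ID. The rule did not use their values, though earlier results of these data were known. Of 8 names so defined, 7 had a row, out of 12866 rows in all. These were Plagl1, Plagl2 and the rows Z13_A, Z14_A, Z9_A, ZpA+2_S and ZpA-9_S. Plag1 had no row and was not analysed here. The names of the 5 rows without a gene ID are left unexplained by the labels and the table. Whether they stand for tags of the transfected plasmid was not tested.

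Cells of the Zac1 group were transfected with pRK5-Zac1, and cells of the CAT group with pRK5-CAT, which carries the bacterial chloramphenicol acetyltransferase gene and served as the negative control. Zac1 is the protein made from Plagl1. Both groups went through the same Lipofectamine transfection, and RNA was taken after 16 h. Each group had 2 libraries from separate transfections, numbered 9 and 12, and the comparison asked which transcripts differ when Zac1 is overexpressed. Transfection was transient, and the labels do not give the share of cells that took up plasmid, so fewer transfected cells and less RNA per cell cannot be told apart.

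PLAG family proteins are transcription factors that bind GC-rich DNA through a run of zinc fingers near the N terminus. Plagl1 is an imprinted gene, expressed from the paternal copy in most fetal tissues, and its product restrains proliferation. Plag1 and Plagl2 are known as growth-promoting genes, and Plag1 is activated by rearrangement in human salivary gland adenomas.

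In the assay, cDNA held on oligo(dT) beads was cut with DpnII, which recognises GATC, and a short tag next to the site nearest the poly(A) end was sequenced. Tags are therefore counted once per transcript and are not scaled by length. The annotated Plagl1 transcript used here (chromosome 10, plus strand, 5260 bases) holds 13 such sites, of which 5 lie in the 5′ UTR, 6 in the coding part and 2 in the 3′ UTR. That of Plagl2 (chromosome 2, minus strand) holds 11 and that of Plag1 (chromosome 4, minus strand) holds 9. The tags below are what the annotated transcripts would give, which need not be the tags that were counted. They are the 20 bases from the last site of each transcript, and for Plagl1 also from the last site of the coding part, with the DpnII site in capitals, read from GENCODE M21 transcripts on GRCm38.
Plagl1, last site: GATCaatttaagtcattgtt
Plagl1, last coding site: GATCctgagccagagccaga
Plagl2, last site: GATCaatattttgcttttta
Plag1, last site: GATCacttacctaatgttct
All 13 tags of Plagl1, all 11 of Plagl2 and all 9 of Plag1 occurred in transcripts of that gene alone. The last Plagl1 tag lies 1587 bases from the annotated 3′ end, in the UTR. How much of this transcript the plasmid insert holds, and which tags were summed into the Plagl1 row, is stated neither in the labels nor in the table.

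Whole counts recovered from the deposited values summed to 12441416 and 12811896 for Zac1 replicates 9 and 12, and to 11578920 and 13840674 for CAT replicates 9 and 12. Zac1 replicate 9 stood apart, since a chi-square divided by its degrees of freedom reached 39.1 against Zac1 replicate 12 and 33.1 and 39.9 against the CAT libraries, while the other 3 pairs gave 12.8 to 13.6. Of 16 noradrenergic and neuronal markers 13 had a row, among them Phox2a, Hand2, Th and Dbh. Their summed normalised counts were 39873 and 38591 in the Zac1 libraries and 41859 and 40682 in the CAT libraries. Of 10 markers of leukocytes, endothelium, glia and fibroblasts 6 had a row and 2 reached the minimum mean for testing, and neither of these passed. Summed, these markers stood at 411 and 397 in the Zac1 libraries and at 365 and 268 in the CAT libraries, mostly from Mbp, with Ptprc, Aif1, Aqp4 and Col3a1 not listed.

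The transfected gene separated the groups completely. Plagl1 (gene ID 22634) had normalised counts of 3397 and 1475 in Zac1 replicates 9 and 12, against 0 in both CAT libraries. The recovered counts were 3497 and 1492 in the Zac1 libraries, against 0 and 0 in the CAT libraries. Both Zac1 libraries were therefore high and both CAT libraries empty, as the labels say. The exact 95% Poisson intervals of the counts were 3382 to 3615 and 1417 to 1570, and they cover counting error only. For a count of 0 a floor of 3 counts was set. That is 0.259 and 0.217 CPM (counts scaled to a common library total) in CAT replicates 9 and 12. The floor is a fixed setting and lies below 3.69 counts, where the exact 95% interval of a 0 ends. These bounds leave room for chromosomal Plagl1 transcripts at very low level, which were not detectable at this depth.

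Against the floor of 3 counts per CAT library, Plagl1 was at least 793-fold higher in Zac1 cells, at least 480-fold from Zac1 replicate 12 alone and at least 1106-fold from Zac1 replicate 9 alone. On the log2(value + 1) scale the difference was 11.13 ± 0.42 (SE, n = 2 each; limma, Benjamini-Hochberg adjusted p = 1.15e-10). It ranked 1 of 11433 genes tested both by fold change and by p, where 0.962% of the genes tested passed as higher in Zac1 cells. Its share of all counts was 0.0281% in Zac1 replicate 9 and 0.0116% in Zac1 replicate 12. Plagl1 also passed without Zac1 replicate 9 (limma adjusted p = 0.0336) and without Zac1 replicate 12 (0.0119), and it was then the 1 gene that passed, or 0.00875% of those tested. Each of these fits has 1 Zac1 library, which is assumed to vary like the CAT libraries, so they are no check on the spread between Zac1 transfections. Plagl1 passed on the recovered counts too, in edgeR's quasi-likelihood test (adjusted p = 1.63e-08), where 1.31% of genes were called higher, and in DESeq2 (1.11e-11), where 1.25% were.

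**Figure D1:**
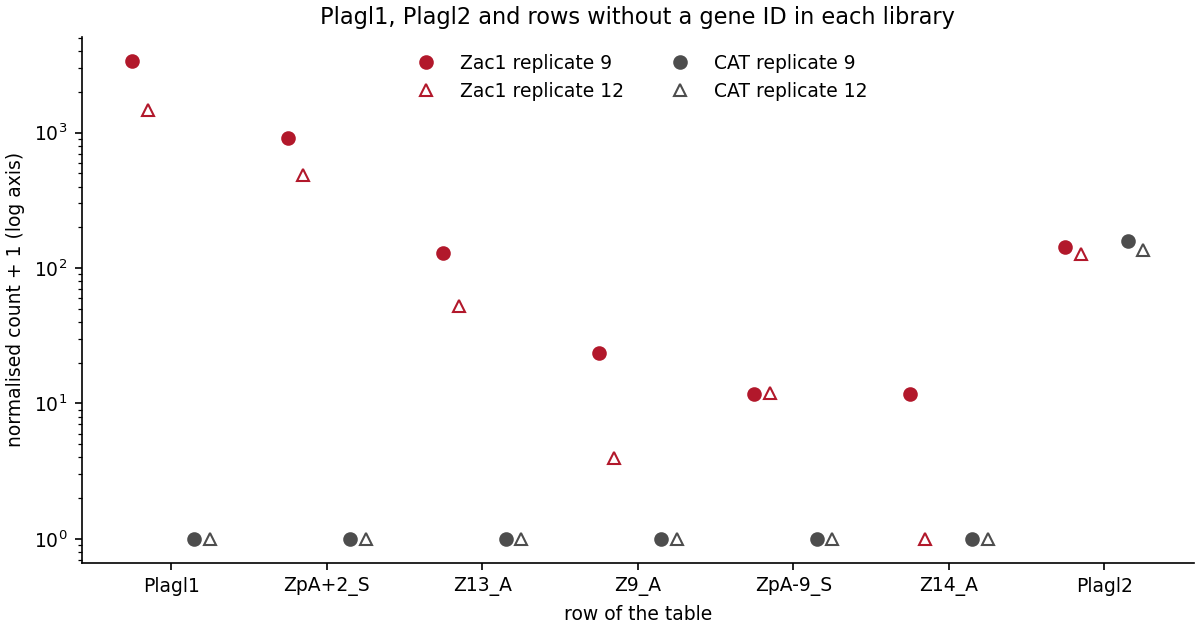
Normalised count plus 1 (log axis) of Plagl1, Plagl2 and the 5 rows without a gene ID, with 1 point per library (Zac1 red, CAT grey, replicate 9 filled circles, replicate 12 open triangles). Plagl1 and 5 rows sit at 0 in both CAT libraries, plotted at 1 on this axis, while Plagl2 lies between 126 and 156 in all 4 libraries.

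All 5 rows without a gene ID followed the same split between the groups, with 0 counts in both CAT libraries. The smallest total of any row was 10 counts, so a row at 0 in both CAT libraries is listed only through its Zac1 counts. For the low rows the split is therefore partly set by their being listed. Among the 5, ZpA+2_S was by far the most abundant. It had 939 and 495 counts in Zac1 replicates 9 and 12, and normalised counts of 912 and 489. Against the floor it was at least 228-fold higher than in CAT cells, and at least 159-fold from Zac1 replicate 12 alone. Z13_A had 132 and 52 counts in Zac1 replicates 9 and 12, at least 29.2-fold higher than in CAT cells and at least 16.7-fold from Zac1 replicate 12 alone. The remaining 3 rows were near the floor.

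Among these low rows the 2 Zac1 libraries did not always both hold tags. Z9_A had 23 and 3 counts in Zac1 replicates 9 and 12, ZpA-9_S had 11 and 11, and Z14_A had 11 and 0. At the floor of 3 counts the 0 of Z14_A stands for 0.234 CPM in Zac1 replicate 12, so its groups were separated by 1 library alone. These rows name no gene and were not tested with the genes. An exact permutation test of 2 libraries against 2 cannot go below p = 0.333 (two-sided) for any of them.

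Together the 5 rows held 1116 and 561 counts in Zac1 replicates 9 and 12. Set against Plagl1 these sums were 0.319 (exact 95% interval 0.298 to 0.341) in replicate 9 and 0.376 (0.341 to 0.415) in replicate 12. The ratio was higher in replicate 12, with intervals that overlapped at their ends. Nearly all of it came from ZpA+2_S, which made up 84.1% of the 5 rows in replicate 9 and 88.2% in replicate 12. Without that row the ratio was 0.0506 and 0.0442. Names ending in S took 20.6% (Clopper-Pearson 95% interval 19.4 to 21.8) and 24.6% (22.8 to 26.6) of the 6 rows that include Plagl1, in Zac1 replicates 9 and 12. The intervals for names ending in S did not overlap, and they cover counting error only. ZpA+2_S alone held 939 of the 950 counts under these names in replicate 9 and 495 of 506 in replicate 12. Names ending in A took 3.60% (3.08 to 4.18) and 2.68% (2.02 to 3.47), with intervals that overlapped.

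The Zac1 libraries differed by more than counting error in the transfected gene. Plagl1 was 2.30-fold higher in Zac1 replicate 9 than in replicate 12 (exact 95% interval for counting error 2.17 to 2.45). Z13_A showed a ratio of 2.49 (1.80 to 3.51) and Z9_A one of 7.53 (2.28 to 39.2). ZpA+2_S, at 1.86 (1.67 to 2.08), was below Plagl1 with an interval that did not meet that of Plagl1. ZpA-9_S, at 0.98 (0.386 to 2.50), was too low to be told from either. For Z14_A the ratio was 3.60 against a floor of 3 counts in replicate 12, and the exact lower 95% limit was 2.47.

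For Plagl2 the interval included 1, with a ratio of 1.13 (0.884 to 1.44) between Zac1 replicates 9 and 12 and 1.15 (0.905 to 1.46) between CAT replicates 9 and 12. Over all genes tested the median log2 difference between Zac1 replicates 9 and 12 was -0.02, and the central range from percentile 5 to 95 was -0.82 to 0.83. At 1.20 Plagl1 lay at percentile 98.3 of these genes. Of the 110 genes called between the groups, 17 had a larger difference between the 2 Zac1 libraries than Plagl1. The median difference over all 110 called genes was 0.68. How the amount of Plagl1 relates to that of other genes was not tested, since 2 Zac1 libraries allow no such test.

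**Figure D2:**
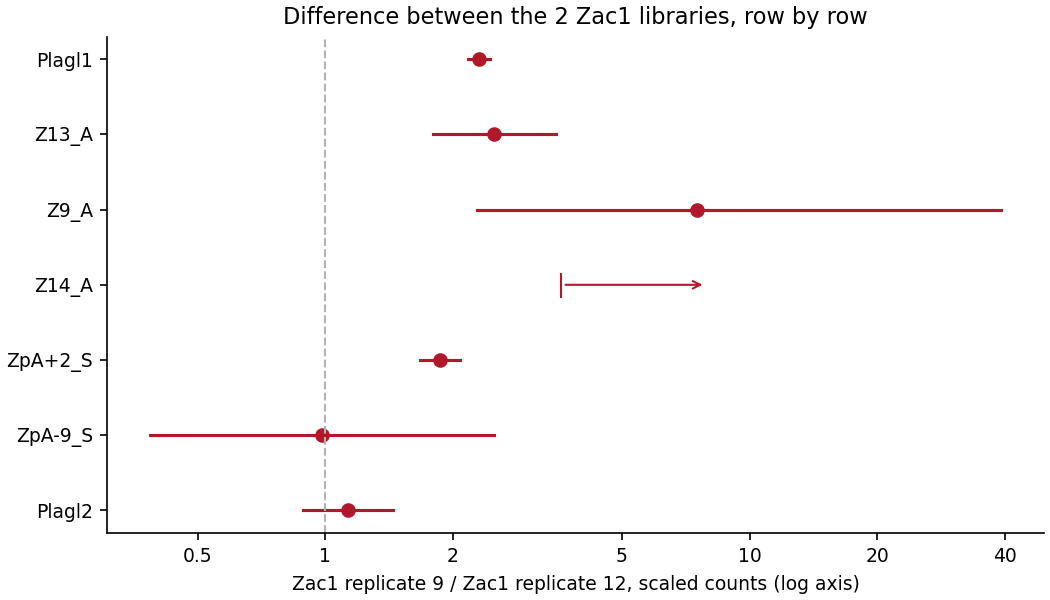
Ratio of Zac1 replicate 9 to Zac1 replicate 12 for each row (log axis), from recovered counts scaled to library size. Lines are exact 95% intervals for counting error, the arrow for Z14_A starts at 3.60, its ratio to a floor of 3 counts and not an interval end, and the dashed line marks equal levels. Plagl1 at 2.30 and ZpA+2_S at 1.86 lie clear of the dashed line, and Plagl2 at 1.13 does not.

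Plagl2, the close relative of Plagl1 that was measured, did not differ detectably between the groups. Plagl2 (gene ID 54711) had normalised counts of 142 and 126 in Zac1 replicates 9 and 12, against 156 and 136 in CAT replicates 9 and 12. The groups overlapped, with CAT replicate 9 highest and Zac1 replicate 12 lowest. Means were 134 ± 11.5 in Zac1 cells and 146 ± 14.4 in CAT cells (SD, n = 2 each). The log2 fold change was -0.13 ± 0.27 (SE; limma adjusted p = 0.983), with a 95% interval of -0.69 to 0.44. In linear terms that interval runs from 0.619-fold to 1.35-fold, so a change of Plagl2 beyond those bounds was not seen, while smaller changes cannot be judged. Of all genes tested, 34.9% had a smaller absolute log2 fold change than Plagl2.

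Other genes besides Plagl1 were also counted in Zac1 cells alone. Of all rows, 92 had 0 counts in both CAT libraries, 6 of them members, and 0 rows had 0 counts in both Zac1 libraries. No row had a total under 10 counts, so a row empty in 1 group is listed only through the other group. By summed Zac1 counts Plagl1 ranked 1 with 4989 and ZpA+2_S ranked 2 with 1434. Z13_A ranked 4 with 184. Slc4a1, which encodes the erythrocyte anion exchanger, had 71 and Igf2, a fetal growth factor gene, had 69. The median over the 92 rows was 17.5 counts, not far above the smallest total of 10, and 16 of the rows were genes tested. In 79 of the 92 rows Zac1 replicate 9 exceeded replicate 12. The matching share over all rows was not counted, so nothing is read from this number.

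**Figure D3:**
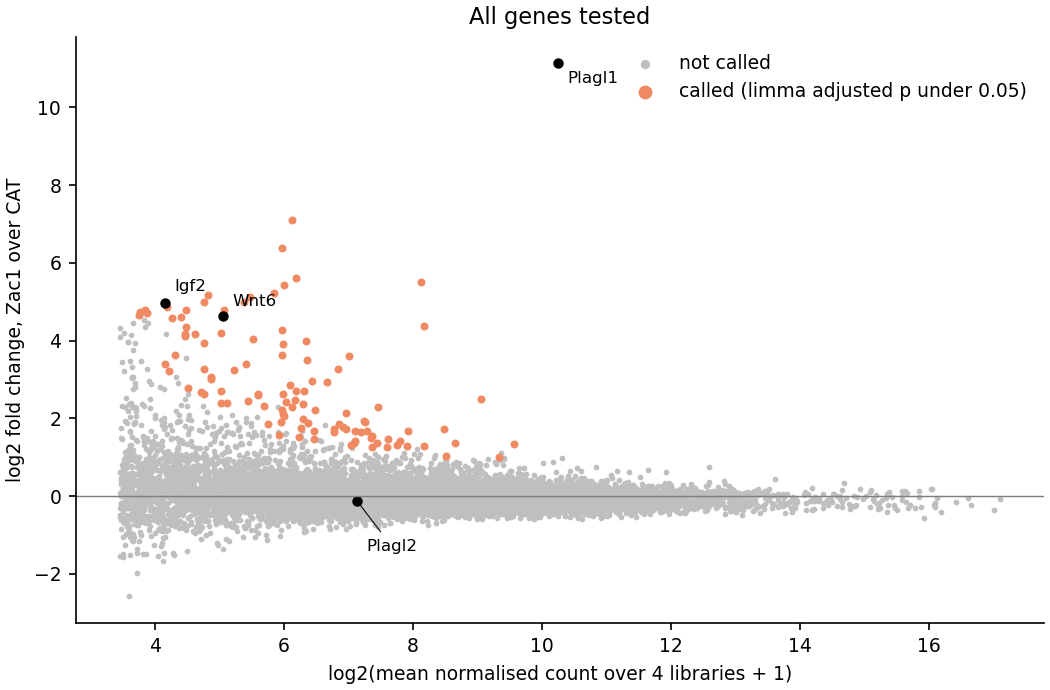
Log2 fold change of Zac1 over CAT against log2 of the mean normalised count plus 1, with 1 point per gene tested (orange, limma adjusted p under 0.05; grey, not called; black and labelled, the family genes, Igf2 and Wnt6). Plagl1 at 11.13 stands above all others, and Plagl2 at -0.13 lies within the grey band.

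The genes whose profile over the 4 libraries was nearest to that of Plagl1 were, like it, almost silent in CAT cells. Likeness was the sum of absolute differences between the genes' shares of their own summed normalised counts, which is 0 for equal profiles and at most 2. Plagl1 had 69.7% of its sum in Zac1 replicate 9 and 30.3% in replicate 12. Hspb7, a small heat shock protein gene of muscle, was nearest at 0.00754, with normalised counts of 38.0 and 16.8 in Zac1 replicates 9 and 12 and 0 in both CAT libraries. Tex19.2, a germ cell gene, followed at 0.0322, with 60.3 and 24.7 in the Zac1 libraries and 1.09 and 0 in the CAT libraries.

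Cnn1 (smooth muscle calponin) came next at 0.0453 and Tnni2 (fast skeletal troponin I) at 0.0472, with 167 and 80.1 for Tnni2 in the Zac1 libraries against 0.0126 and 0.946 in the CAT libraries. Igf2 lay at 0.0493 and Eps8l2, which encodes an actin regulator, at 0.0571. The other 4 named by the rule were Odf3l2, Apoh, Prrt4 and Tbx10, at 0.0588 to 0.0839. Of the 10 genes, 4 had 0 counts in both CAT libraries and 8 were called as higher in Zac1 cells, against 0.962% of all genes tested, but a choice by likeness to Plagl1 favours both properties and nothing is read from these counts. The median distance over all genes tested was 1.01, and Plagl2, at 1.04, ranked 7519. These distances are a description over 4 libraries, of which the 2 Zac1 libraries fix most of the order.

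**Figure D4:**
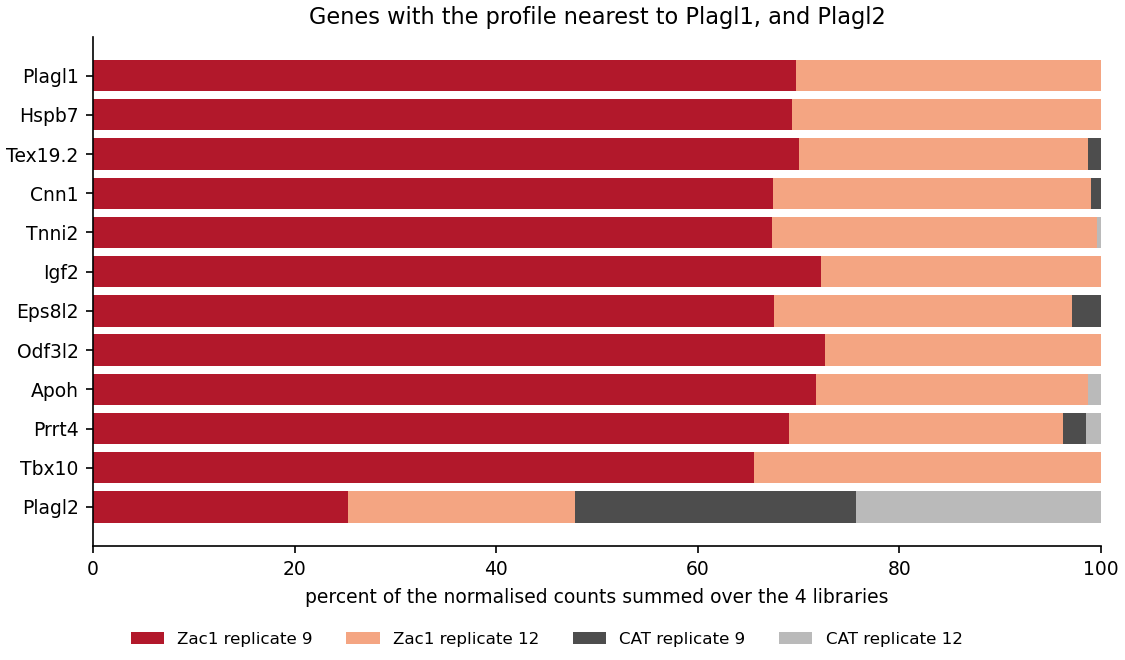
Percent of each gene's summed normalised counts found in each library, for Plagl1, the 10 genes nearest to it and Plagl2 (bars, Zac1 libraries red and light orange, CAT libraries dark and light grey). The 10 genes hold 65.5% to 72.7% of their sum in Zac1 replicate 9, next to 69.7% for Plagl1, and Plagl2 is spread over all 4 libraries.

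Some genes reported as targets of PLAG family factors rose with Plagl1. A list of 20 such genes was taken from general knowledge, and 18 had a row. Krt14 and Sftpc had none, and 4 were below the minimum mean, among them Slc2a4, Fzd9 and Nrip1. Of 14 tested, 4 rose, 0 fell and 10 did not pass (limma, adjusted over all genes tested), where 0.962% of all genes tested rose. Igf2 and Wnt6 were among the 4. Over all genes 0 were called lower in limma, edgeR or DESeq2. At an unadjusted p under 0.05 in limma 598 of 11433 genes were higher and 110 lower. Of the 14 targets tested, 7 lay under that unadjusted p. Without CAT replicate 9 limma called 115 higher and 5 lower. The median log2 fold change of the 14 was 0.86, against -0.01 for all genes tested, and it is the same with the genes at 0 in CAT libraries set at their lower bounds. Both Zac1 libraries lay above both CAT libraries for 8 of the 14 and below them for 2, next to 17.2% and 16.7% of all genes tested. The list was chosen with results of these data known, and it is not independent evidence of a direction.

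Igf2 (gene ID 16002) had normalised counts of 48.7 and 18.8 in Zac1 replicates 9 and 12, against 0 in both CAT libraries, an increase of at least 11.0-fold, or at least 6.12-fold by Zac1 replicate 12 alone (limma adjusted p = 0.0191). Wnt6 (gene ID 22420), a WNT ligand gene tied to PLAGL2 in human glioma, had 108 and 23 counts in the Zac1 libraries and 1 and 1 in the CAT libraries. Its ratio scaled to library size was 63.1 (exact 95% interval for counting error 17.1 to 527; limma adjusted p = 0.00761), 22.4 from Zac1 replicate 12 alone and 103 from Zac1 replicate 9 alone.

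None of the 4 targets that rose passed in limma without Zac1 replicate 9, with an adjusted p of 0.766 for Igf2 and Wnt6. None passed without Zac1 replicate 12 either, with 0.127 for both genes. These fits too have 1 Zac1 library.

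Among the 10 that did not pass, Cdkn1c, the gene of the cell cycle inhibitor p57, had normalised counts of 29.2 and 10.8 in Zac1 replicates 9 and 12, against 1.11 and 0.931 in the CAT libraries (limma adjusted p = 0.170). Pparg, a nuclear receptor gene, had 160 and 163 against 92.9 and 50.5 (limma adjusted p = 0.0945), and Fzd2, a WNT receptor gene, had 67.0 and 69.2 against 28.9 and 31.0 (0.248). In all 3 the Zac1 libraries lay above the CAT libraries. Adcyap1r1, the PACAP receptor gene reported as induced by Zac1, had 2088 and 1812 in Zac1 replicates 9 and 12, within the range of 1542 and 2325 in CAT replicates 9 and 12. Its log2 fold change was 0.04 ± 0.23 (SE), with an adjusted p of 0.991 in limma. Cdkn1a, the p21 gene, was at -0.20 ± 0.24 and the apoptosome gene Apaf1 at -0.61 ± 0.33 (SE; limma adjusted p = 0.983 and 0.923). The list also held Socs3 at 0.56, Dlk1 at 0.37, Bnip3 at 0.05 and Tcf4 at -0.15 on the log2 scale.

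No gene on the list of proteins that work with Zac1 passed the test. Of 12 cofactor genes, all tested, 0 passed in limma, in edgeR's quasi-likelihood test or in DESeq2, and 0 had an unadjusted p under 0.05 in limma. Of all genes tested limma called 0.962% higher and 0% lower. At an unadjusted p under 0.05, 598 of 11433 genes were higher and 110 lower. By either measure 0 of 12 does not set these genes apart. Log2 fold changes ran from -0.34 to 0.26 with a median of 0.04, and the groups overlapped in all 12. Over all genes tested, both Zac1 libraries lay above both CAT libraries for 17.2% and below them for 16.7%, and the rest overlapped. Ep300, which encodes the acetyltransferase and Zac1 coactivator p300, had normalised counts of 1372 and 1457 in Zac1 replicates 9 and 12, against 1404 and 1263 in CAT replicates 9 and 12. The log2 fold change was 0.09 ± 0.21 (SE) for Ep300, 0.09 ± 0.22 for Trp53 and -0.29 ± 0.24 for the deacetylase gene Hdac1 (limma adjusted p = 0.983 for each).

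No tested neighbour of Plagl1 on its chromosome passed the test. The 5 nearest genes with a row on either side, by their order on chromosome 10 in RefSeq on GRCm38, were Fbxo30, Utrn, B230208H11Rik, Stx11 and Sf3b5 before it and Fam164b, Ltv1, Phactr2, Fuca2 and Pex3 after it. Of 8 tested, 0 passed in limma, in edgeR or in DESeq2, and 0 had an unadjusted p under 0.05 in limma, with log2 fold changes of -0.44 to 0.26 and a median of -0.03. Limma called 0.962% of all genes tested higher and 0% lower. At an unadjusted p under 0.05, 598 of 11433 genes were higher and 110 lower. By either measure 0 of 8 does not set the neighbours apart. Both Zac1 libraries lay below both CAT libraries for 3 of the 8 and above them for 0, next to 16.7% and 17.2% of all genes tested. Sf3b5, a splicing factor subunit gene next to Plagl1, had normalised counts of 676 and 681 in Zac1 replicates 9 and 12, against 692 and 720 in CAT replicates 9 and 12, a log2 fold change of -0.06 ± 0.21 (SE; limma adjusted p = 0.989). Ltv1, a ribosome assembly gene on the other side, was at -0.23 ± 0.25 (limma adjusted p = 0.983).

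Between Plagl1 and Ltv1, Fam164b (named Zc2hc1b in the annotation) had 10 counts in Zac1 replicate 9 and 0 in the other 3 libraries. It was below the minimum mean and not tested, as was B230208H11Rik, with 5 and 1 counts in Zac1 replicates 9 and 12 and 6 and 7 in CAT replicates 9 and 12.

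**Figure D5:**
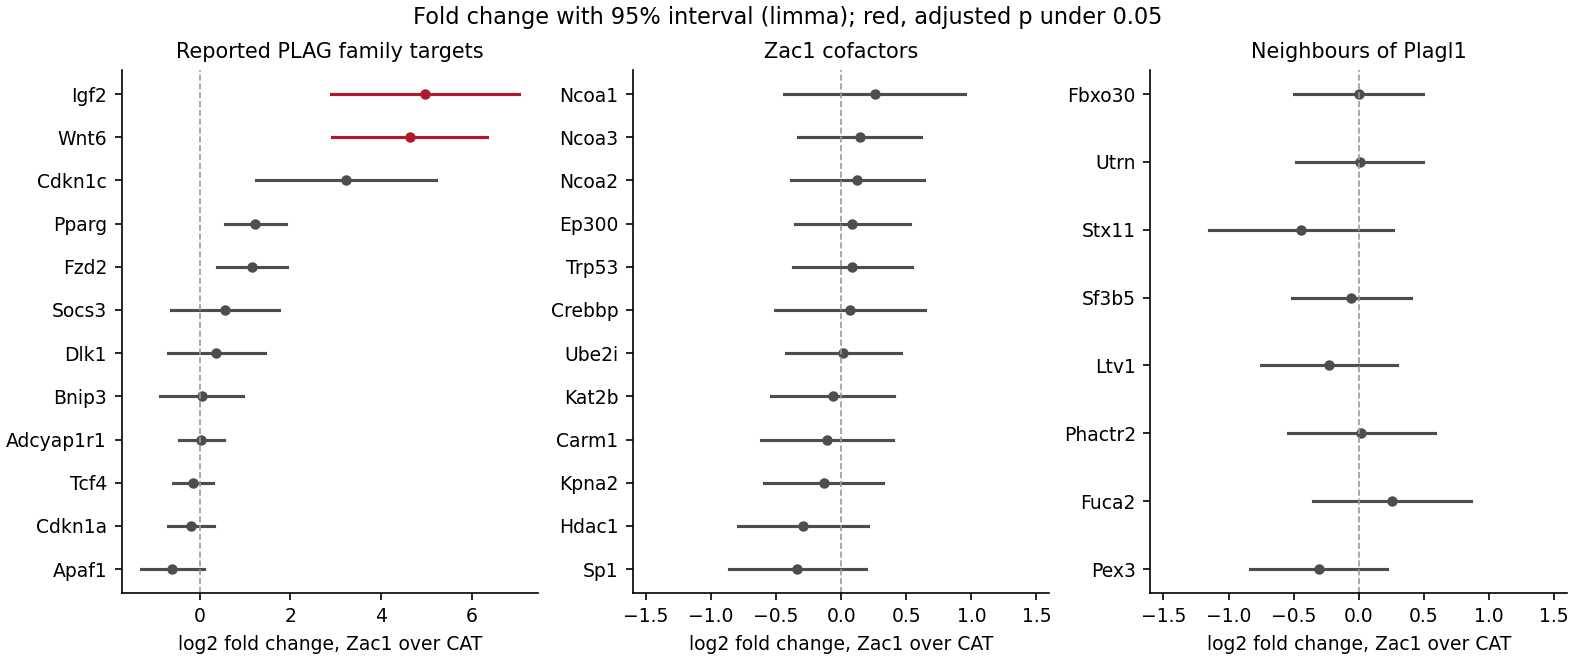
Log2 fold change of Zac1 over CAT with its 95% interval (limma) for tested members of the 3 lists, with red marking an adjusted p under 0.05. Of the targets drawn, Igf2 and Wnt6 are red, and all 12 cofactor genes and all 8 tested neighbours lie between -0.44 and 0.26.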

How the data were processed

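Digital gene expression libraries were made from 2 µg of total RNA with DpnII tags and 15 PCR cycles, per the labels' protocols. The deposited values are a signal, namely edgeR pseudocounts normalised by the authors to a common library size, on genome build mm9 per the submitters' processing notes. Neither aligner nor tag-to-gene rules could be read from the sources used here. Whole counts were recovered by inverting edgeR's negative binomial quantile mapping, and 100% of values were returned within 1e-06. PCR reads carry no molecular identifiers, so intervals and floors (3 counts) cover counting error only.

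Genes with a mean of at least 10 over the 4 libraries were tested (11433, with 1428 left out) as log2(value + 1) with limma 3.58.1 in R 4.3.3, using a mean trend and Benjamini-Hochberg adjustment over all of them at 0.05. Fold changes on that scale understate changes of low genes. The 5 rows without a gene ID held 0.00897% and 0.00438% of the counts of Zac1 replicates 9 and 12 and 0 in CAT libraries, and stayed out of library totals and tests. With 2 transfections per group, p-values measure only the spread between these libraries. In limma the spread of each gene is drawn toward a trend over all genes, with 14.1 prior degrees of freedom. Exact intervals used scipy 1.17.1 in Python 3.11.15, and the fits were tested on simulated data. Alternatives were pseudocounts of 0.5 and 5, no minimum, equal-total scaling, no trend, a replicate block, each library left out, and edgeR 4.0.16 and DESeq2 1.42.0 on recovered counts.

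The rule for named genes took all members, the list genes, the neighbours and the 10 genes with library shares nearest to those of Plagl1. Slc4a1 is outside the rule and was picked with its values in view. Members and lists were chosen with earlier results of these data known. Coordinates are not printed, since the reference used here is of another build than the files. A few list genes are not reported here by name, and the list counts include them.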

Additional observations from a re-analysis of the deposited data

Results flagged for a closer look

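The 5 rows without a gene ID lie outside the test across genes, and each held tags in Zac1 libraries above the 0 counts of both CAT libraries, which is why they are listed here. No row had a total under 10 counts, so rows at 0 in both CAT libraries are present only through Zac1 counts. ZpA+2_S had 939 counts in Zac1 replicate 9 and 495 in Zac1 replicate 12. Z13_A had 132 and 52 in the same libraries. ZpA-9_S had 11 in each Zac1 library. Z9_A had 23 in Zac1 replicate 9, and its 3 in Zac1 replicate 12 do not exceed the limit that a count of 0 allows. Z14_A had 11 in Zac1 replicate 9 and 0 in Zac1 replicate 12.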

How the results depend on the processing

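The number of genes called was 110, and 79 to 150 under other pseudocounts, minimums, scalings, trends and tools. Leaving out a library gave 1 to 154 genes, namely 1 when either Zac1 library was dropped, and 0 to 5 called targets, with 0 without either Zac1 library. A replicate block gave 279 genes. Replicate differences of the 2 groups correlated at 0.20 over 11433 genes, so same-numbered libraries moved together to some degree. The labels do not say that the numbers mark a shared batch, and 2 pairs are too few to settle it, so the fit without a block was kept. Under the block Pparg passed (limma adjusted p = 0.00243). Without CAT replicate 9 Pparg also passed (0.0138), and without CAT replicate 12 Dlk1 did (0.0124). Cdkn1c passed without a trend (0.0438) and in edgeR (0.0355).

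Plagl1 passed under all alternatives run, with a log2 fold change of 10.53 to 11.73 when a library was left out. Its size depends on how the 0 counts are handled, with 8.81 at a pseudocount of 5, 12.13 at 0.5, 13.67 in DESeq2 and 14.26 in edgeR. The limma adjusted p of Plagl1 was 0.000371 without a trend. Plagl2 stayed between -0.23 and -0.03. Of 19 single genes under 12 alternatives, 204 values kept direction and call, 10 lost the call, 5 gained it and 9 changed sign. The sign changed for Sf3b5 under equal-total scaling (0.0052). It also changed with a library left out for Adcyap1r1 (-0.06 without Zac1 replicate 9 and -0.26 without CAT replicate 9), Cdkn1a (0.11 without Zac1 replicate 9), Dlk1 (-0.25 without Zac1 replicate 12 and -0.77 without CAT replicate 9), Bnip3 (-0.71 and -0.72 without the same libraries) and Trp53 (-0.083 without Zac1 replicate 9). Left-out ranges were -0.26 to 0.34 for Adcyap1r1, -0.50 to 0.11 for Cdkn1a, -0.77 to 1.50 for Dlk1, -0.72 to 0.81 for Bnip3 and -0.08 to 0.25 for Trp53. The ratio of rows without a gene ID to Plagl1 was 0.0506 and 0.0442 in Zac1 replicates 9 and 12 without the largest row. The cause of these changes was not tested. Plag1 had no row, so its alternatives were not run. Rows near 3 counts are limited by depth.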
